A study of Mus musculus with 4 samples.

Results

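Transcripts of 10 Notch pathway genes were examined in the cochlea of young adult mice with and without their outer hair cells (OHCs), to ask whether loss of these cells was accompanied by a difference in Notch ligands, receptor or target genes. The genes were *Dll1*, *Jag1* and *Jag2* (ligands), *Notch1* (receptor), *Lfng* (a glycosyltransferase that modifies Notch), and *Hes1*, *Hes5*, *Hey1*, *Hey2* and *Heyl* (transcriptional repressors induced by Notch). They were taken as every non-control probe whose gene name in the scanner files was one of these symbols, which gave 12 probes of 39429 and 10 genes of 29977. Agilent one-colour arrays were hybridised with cochlear RNA of 4 groups of C57BL/6J (B6J) mice at 5 weeks of age: untreated wild-type, diphtheria toxin (DT)-treated wild-type, untreated OHC-TRECK and DT-treated OHC-TRECK. The OHC-TRECK mice, also called *Prestin*-*hDTR*, carry a transgene in which the promoter of *Slc26a5*, the gene of the OHC motor protein prestin, drives the human DT receptor, and they came from 1 founder line. Both DT groups received 50 µg/kg DT and were dissected 7 days later, so that the DT-treated wild-type mice had the toxin without the receptor and the untreated OHC-TRECK mice had the receptor without the toxin. Each group had 1 array. The design gives n = 8, with 4 females and 4 males, and the methods speak of 8 cochleae, so whether 8 animals or 8 cochleae stand behind an array, and how their RNA was combined, is not settled. The spread between animals was therefore not measured, no p-value was possible, and every difference below compares arrays rather than conditions.

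Notch signalling passes between touching cells. A Delta or Jagged ligand on one cell binds a Notch receptor on its neighbour, the receptor is cleaved, and its intracellular part enters the nucleus, where it joins the DNA-binding protein Rbpj and switches on *Hes* and *Hey* genes. In the developing organ of Corti, hair cells express *Jag2* and *Dll1*, and the Notch1 receptor of the surrounding supporting cells answers with *Hes1*, *Hes5* and *Hey* repressors that hold down the hair cell gene *Atoh1*, a process called lateral inhibition. *Jag1* is mainly a ligand of the supporting cells themselves. Several of these genes also act outside the sensory epithelium, among them *Hey1*, *Hey2* and *Heyl* in blood vessels, and whole cochlear RNA holds all of these tissues together. In such bulk RNA, fewer cells of a type and less RNA per cell cannot be told apart.

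The core sequence bound by Rbpj is TGGGAA, which was searched on both strands. Promoter windows of 7 of the 10 members, each spanning 250 bases before to 50 bases after the start site, were found in the RefSeq table (GRCm38.p6). It held no window for *Hes1*, *Hey1* and *Heyl*, so their promoters were not searched. The core was found on either strand in the windows of 3 members, *Hes5*, *Hey2* and *Lfng*, and at 2 places in each. These 3 windows are shown from 250 bases before the start site to its first 20 bases, with the core or its reverse complement in capitals, because the same letters stand before genes that lay on opposite sides of the controls on the DT-treated OHC-TRECK array. *Hes5* is shown at chr4:154960673-154960942 on the plus strand, *Hey2* at chr10:30842764-30843033 on the minus strand and *Lfng* at chr5:140607091-140607360 on the plus strand.
Hes5: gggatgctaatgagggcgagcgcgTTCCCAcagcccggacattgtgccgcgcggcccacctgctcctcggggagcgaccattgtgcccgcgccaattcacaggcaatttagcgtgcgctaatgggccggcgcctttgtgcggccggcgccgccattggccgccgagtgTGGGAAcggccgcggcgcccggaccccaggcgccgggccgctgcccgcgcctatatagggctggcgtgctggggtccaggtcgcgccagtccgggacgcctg
Hey2: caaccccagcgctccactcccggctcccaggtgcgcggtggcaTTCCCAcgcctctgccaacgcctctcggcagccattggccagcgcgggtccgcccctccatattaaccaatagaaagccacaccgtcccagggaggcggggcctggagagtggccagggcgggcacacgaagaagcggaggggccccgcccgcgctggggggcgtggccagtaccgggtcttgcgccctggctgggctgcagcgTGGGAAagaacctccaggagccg
Lfng: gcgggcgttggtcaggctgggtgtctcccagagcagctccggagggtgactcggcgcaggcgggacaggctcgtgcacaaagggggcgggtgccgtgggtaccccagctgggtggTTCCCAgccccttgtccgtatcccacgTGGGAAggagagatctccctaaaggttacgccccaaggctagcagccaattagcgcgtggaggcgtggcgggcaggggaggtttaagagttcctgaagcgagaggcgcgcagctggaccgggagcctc
The first letters of the core lay 226 and 82 bases before the start site in *Hes5*, 207 and 3 bases before it in *Hey2*, and 135 and 108 bases before it in *Lfng*. The longer form GTGGGAA, which contains the core and was searched the same way, was present at both places in *Hes5* and *Hey2* and at the place nearer the start site in *Lfng*. Of 32851 windows of 300 bases, 25.6% held the core at least once, 3.79% held it at 2 or more places and 6.38% held the longer form. The windows of *Notch1*, *Jag1*, *Jag2* and *Dll1* did not contain these letters. A match to letters is a description of the sequence, and no binding of Rbpj was measured.

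The level of a probe is given below as the log2 of its background-subtracted signal relative to the 75th percentile of its own array, so that 0 is the level of a bright probe and each step of 1 is a doubling. Levels were compared between arrays for one probe. The exceptions are the summed levels of marker lists, which add the signals of several probes, and remarks on which gene makes up a sum. The ± value is the error that the scanner software assigned to the spot, converted to log2. It covers the technical error of 1 array only. The 75th percentile lay between 2728 and 3162 intensity units, and 62.3 to 70.6% of the probes were well above background, with the lowest shares, 62.3 and 62.5%, on the DT-treated arrays. Repeated spots of one probe on one array had a median SD of 0.061 to 0.071 (log2). All 10 members had 1 probe well above background on all 4 arrays. OHC loss was visible on the DT-treated OHC-TRECK array, where the summed level of 10 OHC markers, on a linear scale where the 75th percentile is 1, was 6.33 against 24.9 to 27.0 on the control arrays, and *Slc26a5* was not well above background. Most of this sum came from 1 gene, *Ocm*. Of the 10 markers, 7 were at least 2-fold lower on that array than on each control. The macrophage markers were higher there (29.9 against 19.7 to 24.5), and the neutrophil markers differed widely among the controls (13.6 to 59.0, with 22.4 on the DT-treated OHC-TRECK array).

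Among the ligands, *Jag2* was lower on the DT-treated OHC-TRECK array than on every control, whereas *Jag1* lay within the controls. The level of *Jag2* (probe at chr12:114146887-114146946, mm9, minus strand) was -2.06 ± 0.15 in wild-type mice without DT and -2.20 ± 0.15 with DT, and it was -2.06 ± 0.15 in OHC-TRECK mice without DT and -2.50 ± 0.15 with DT. The DT-treated OHC-TRECK array stood 0.30 below the lowest control, a gap larger than the 0.14 that separated the 3 controls from each other. *Jag2* was thus lower by 1.36-fold against untreated OHC-TRECK, 1.23-fold against wild-type with DT and 1.36-fold against wild-type without DT. These differences were 2.15, 1.44 and 2.13 times the software error of the ratio.

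The level of *Jag1* (chr2:136907433-136907492, mm9, minus strand) was -0.41 ± 0.14, -0.24 ± 0.14, -0.31 ± 0.14 and -0.34 ± 0.14 in the same order of groups. The 4 arrays spanned 1.13-fold, within the software error, and both extremes were wild-type arrays. *Dll1* was measured by a probe printed in 10 copies (chr17:15504623-15504682, mm9, minus strand) and had levels of -4.93 ± 0.24, -4.83 ± 0.28, -4.57 ± 0.18 and -4.94 ± 0.29. This probe was dim, with only 6 to 10 of its 10 spots well above background and an SD between spots of 0.22 to 0.42 (log2). The DT-treated OHC-TRECK array was 1.29-fold below untreated OHC-TRECK but was only 0.01 (log2) below untreated wild-type, so no difference from the controls was detectable. A second *Dll1* probe (chr17:15513726-15513785, mm9, minus strand), placed near the 5′ end of another transcript, was well above background in untreated wild-type only, and there it had a signal of 70.6 intensity units. Against that array it was at least 2.17-fold lower in untreated OHC-TRECK, at least 1.15-fold lower in DT-treated wild-type and at least 1.13-fold lower in DT-treated OHC-TRECK. Each bound was computed against the lowest signal that counted as well above background on the dimmer array, and its size depends on that signal, which differs between arrays. The bounds were 0.77, 0.14 and 0.12 times the software error of the ratio. Between the untreated arrays the brighter probe of *Dll1* was 1.28-fold higher in OHC-TRECK, or 1.20 times its software error. The 2 probes thus had opposite directions there, with both differences near or below the error.

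*Notch1*, the receptor, was lowest on the DT-treated OHC-TRECK array and highest on the untreated OHC-TRECK array. In wild-type mice its signal was 517 ± 52.7 intensity units without DT and 631 ± 65.1 with DT, and in OHC-TRECK mice it was 863 ± 86.7 without DT and 519 ± 54.2 with DT. The corresponding levels were -2.40, -2.33, -1.81 and -2.59 (log2). Untreated OHC-TRECK stood apart from the other 3 arrays, being 1.51-fold above untreated wild-type. DT-treated OHC-TRECK was 1.72-fold below untreated OHC-TRECK, a difference that rests in part on this high array. It was 3.74 times the software error, and 2.11% of all tested probes were as far or farther in that direction. Against DT-treated and untreated wild-type the level was 1.20-fold and 1.14-fold lower, which was 1.24 and 0.90 times the error. These values came from 1 probe at chr2:26319440-26319499 (mm9, minus strand), in the part of the transcript that codes for the intracellular portion of the receptor, and its sequence is shown because the *Notch1* result rests on it alone.
Notch1 probe: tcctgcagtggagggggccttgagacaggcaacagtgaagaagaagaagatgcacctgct
The other *Notch1* probe (chr2:26314630-26314689, mm9, minus strand), nearer the 3′ end, had signals of 24.1 to 42.8 intensity units and did not pass the background limit on the 4 arrays, so it gave no check of these values.

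*Lfng* (chr5:141091224-141091283, mm9, plus strand), which adds sugar to Notch and alters its response to the ligands, was slightly higher on the DT-treated OHC-TRECK array. Its levels were -3.59 ± 0.16, -3.39 ± 0.16, -3.52 ± 0.15 and -3.26 ± 0.16 in the order used for *Jag2*. Both DT-treated arrays were above both untreated arrays. The DT-treated OHC-TRECK array was 1.20-fold above its untreated counterpart, and the DT-treated wild-type array was 1.15-fold above its own.

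**Figure D1:**
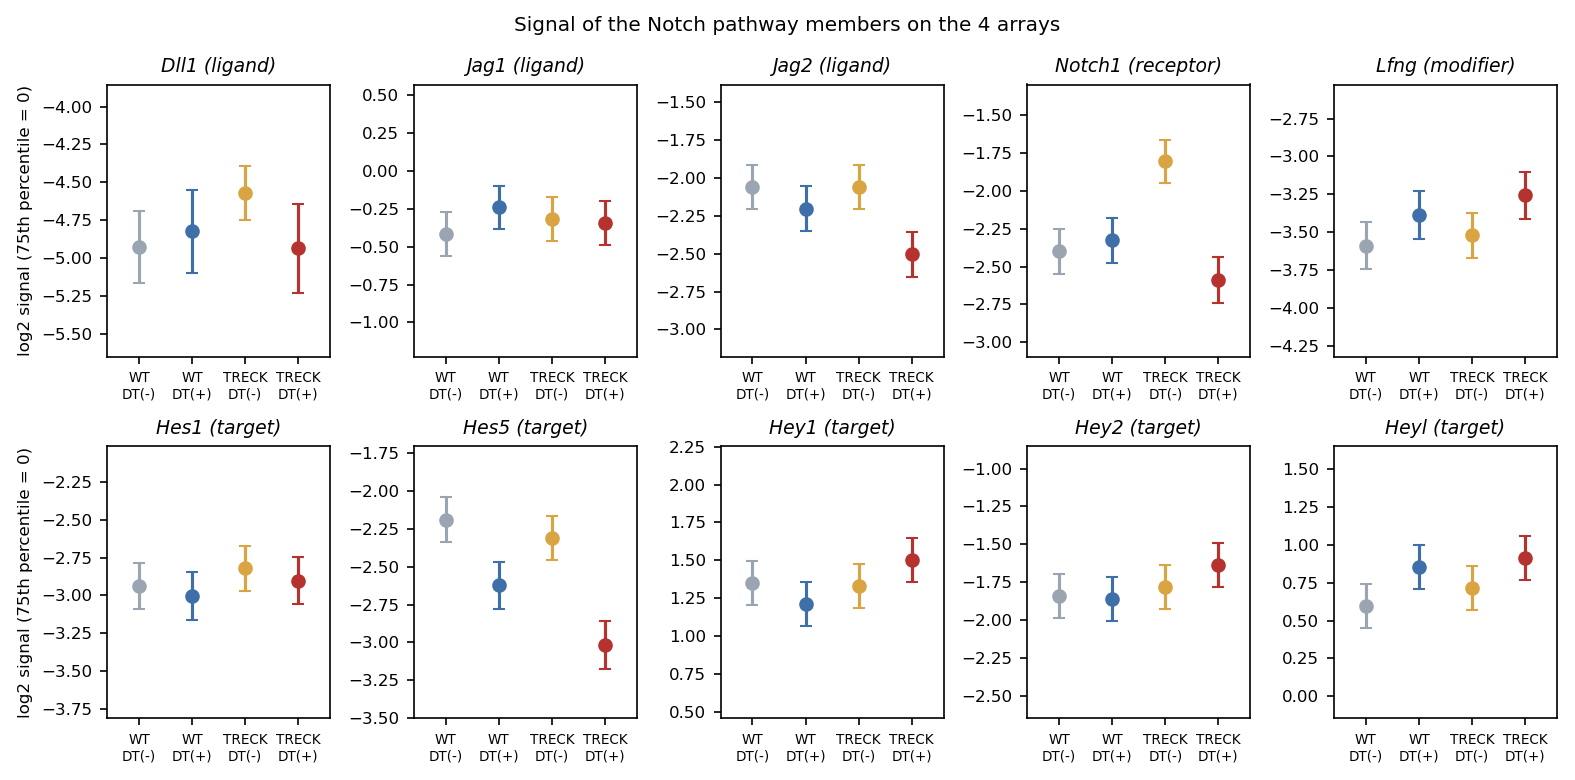
Level of each member on the 4 arrays (log2 signal, with the 75th percentile of the array at 0), from left to right untreated and DT-treated wild-type (WT) and untreated and DT-treated OHC-TRECK (TRECK). Bars are the software error of the single array, every panel spans the same range, and *Jag2*, *Notch1* and *Hes5* have their lowest point on the DT-treated OHC-TRECK array (-2.50, -2.59 and -3.02).

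Among the target genes, *Hes5* was lower on the DT-treated OHC-TRECK array, the 3 *Hey* family genes were slightly higher and *Hes1* lay within the controls. *Hes5* (chr4:154336347-154336406, mm9, plus strand), a repressor of supporting cells, had signals of 599 ± 60.9, 513 ± 54.1, 609 ± 61.5 and 386 ± 42.1 intensity units in that order, which are levels of -2.19, -2.62, -2.31 and -3.02 (log2). The DT-treated OHC-TRECK array was the lowest, and the DT-treated wild-type array was the second lowest. *Hes5* was lower by 1.63-fold against untreated OHC-TRECK, 1.31-fold against wild-type with DT and 1.77-fold against wild-type without DT, or 3.29, 1.79 and 3.84 times the software error. Of all tested probes, 2.57, 8.46 and 2.95% were as far or farther in that direction in these comparisons. DT-treated wild-type was also 1.35-fold below untreated wild-type. Between these 2 arrays 7 of 8 Schwann cell markers were lower (median -0.41, log2), as were 8 of 8 neuronal markers (median -0.27). Between DT-treated and untreated OHC-TRECK, 5 of the 8 Schwann cell markers were higher and 7 of the 8 neuronal markers were lower. The part of these markers in the *Hes5* values was not tested. The gap of 0.39 between DT-treated OHC-TRECK and the lowest control was smaller than the range of 0.44 among the controls.

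*Hes1* (chr16:30067820-30067879, mm9, plus strand), a Notch target in many tissues, had levels of -2.94 ± 0.15, -3.00 ± 0.16, -2.82 ± 0.15 and -2.90 ± 0.16 in the same order. The 4 arrays spanned 1.14-fold, and DT-treated OHC-TRECK stood between untreated wild-type and untreated OHC-TRECK. *Hes1* and *Hes5* share the role of repressing *Atoh1*, and the difference between them was not tested.

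*Hey1* (chr3:8663432-8663491, mm9, minus strand) had levels of 1.351 ± 0.14, 1.209 ± 0.14, 1.330 ± 0.14 and 1.502 ± 0.14. *Hey2* (chr10:30552729-30552788, mm9, minus strand) had levels of -1.84 ± 0.15, -1.86 ± 0.15, -1.78 ± 0.15 and -1.64 ± 0.15. For both, the DT-treated OHC-TRECK array lay above the highest control by more than the range of the controls (0.151 against 0.142 for *Hey1* and 0.145 against 0.078 for *Hey2*), yet the distances were small, at 1.11 to 1.23-fold for *Hey1* and 1.11 to 1.17-fold for *Hey2* over the 3 controls. *Heyl* (chr4:122926975-122927034, mm9, plus strand) had levels of 0.60 ± 0.14, 0.86 ± 0.14, 0.71 ± 0.14 and 0.91 ± 0.14. As with *Lfng*, both DT-treated arrays of *Heyl* were above both untreated arrays, and DT-treated OHC-TRECK was 1.04-fold above DT-treated wild-type. None of the 12 differences of *Lfng* and the *Hey* genes from a control reached 2 times the software error of the ratio.

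**Figure D2:**
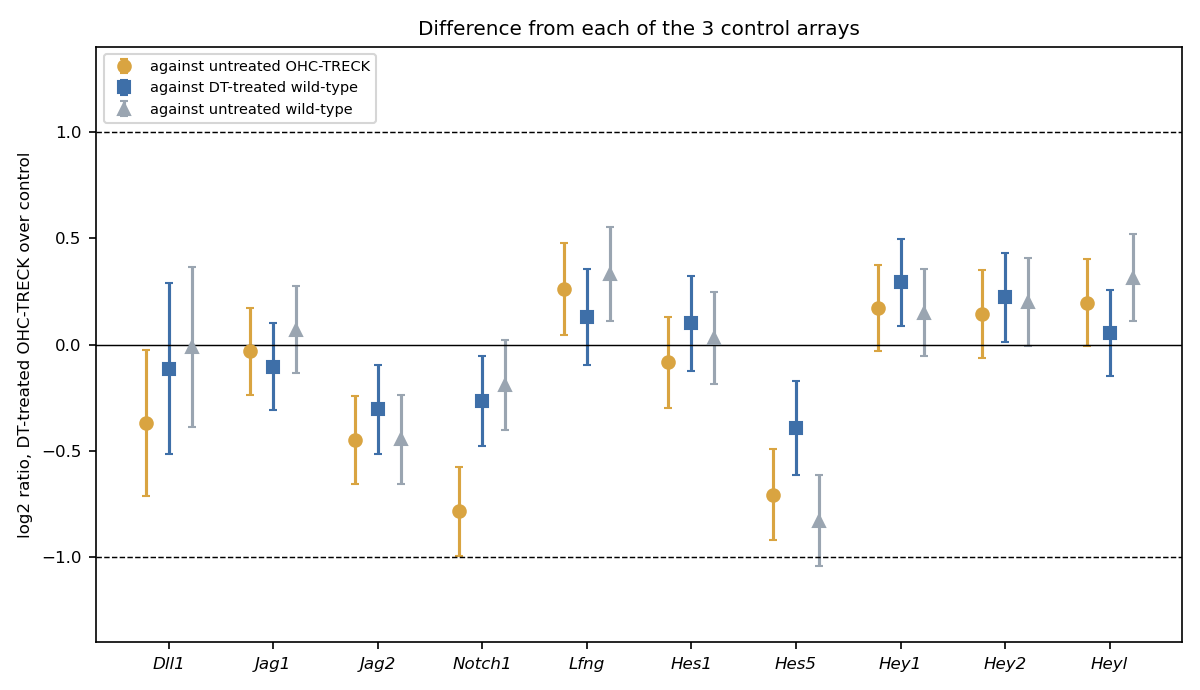
Difference of DT-treated OHC-TRECK from each of the 3 control arrays for the 10 members (log2 ratio), with the software error of the ratio as bars and 2-fold as dashed lines. No point reaches a dashed line, and the points farthest from 0 are *Hes5* against untreated wild-type (-0.83) and *Notch1* against untreated OHC-TRECK (-0.78).

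Counted at the 2-fold screen used in the study's methods, no member gene differed between DT-treated OHC-TRECK and any control. Against untreated OHC-TRECK, 0 of 10 tested member probes were 2-fold higher and 0 were 2-fold lower, where 2.49 and 1.35% of the 28082 tested probes were. Against DT-treated wild-type, 0 of 10 tested member probes passed in either direction, where 1.41% of all tested probes were higher and 1.83% lower. Against untreated wild-type it was 0 of 11, where 1.96% were higher and 1.95% lower. Counts of 0 in 10 or 11 probes lie near these shares and do not set the Notch genes apart. At 1.5-fold, *Notch1* and *Hes5* were lower against untreated OHC-TRECK (3.65% of all tested probes) and *Hes5* alone was lower against untreated wild-type (5.84%). No member was 2-fold above or 2-fold below all 3 controls, as 0.945 and 0.227% of all tested probes were.

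The median of the 10 members was close to that of all probes in each comparison. It was -0.06 (log2) against untreated OHC-TRECK, -0.02 against DT-treated wild-type and 0.05 against untreated wild-type, where the medians of all tested probes were 0.003, 0.005 and -0.03. Of the 10 members, 4 (*Hey1*, *Hey2*, *Heyl* and *Lfng*) were above all 3 controls and 4 (*Notch1*, *Jag2*, *Dll1* and *Hes5*) were below all 3, beside 32.9 and 35.2% of the 23688 probes well above background on every array. The count of 3 members whose distance from the controls exceeded the range of the controls (*Jag2*, *Hey1* and *Hey2*) stood beside 30.2% of those probes. Both shares of members were near the background, so neither count is a result about the Notch genes.

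Among the control arrays, the comparison of DT-treated with untreated wild-type gave 0 member probes past 2-fold of 11 tested (1.46% of all tested probes higher and 1.09% lower), and *Hes5* was the only member beyond 2 software errors. The comparison of untreated OHC-TRECK with untreated wild-type gave 0 higher and 1 lower of 11 (1.01% and 2.32% of all tested probes), the 1 being the second *Dll1* probe, and *Notch1* was the only member beyond 2 software errors. *Notch1* was also the only member past 1.5-fold higher there, beside 2.32% of all tested probes.

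The difference after DT in OHC-TRECK mice and the difference after DT in wild-type mice rest on separate arrays and were set side by side. *Notch1* differed most between them, being 0.78 lower after DT in OHC-TRECK and 0.07 higher after DT in wild-type (log2), which gave a difference between the 2 differences of -0.86 with a software error of 0.30. For *Jag2* the difference was -0.31 with an error of 0.29, for *Hey1* it was 0.31 with an error of 0.29, and for *Hes5* it was -0.27 with an error of 0.30. The remaining members lay between -0.47 (*Dll1*, error 0.50) and 0.17 (*Hey2*, error 0.29), and the median of all 10 was -0.13. Apart from *Notch1*, these values were close to or below their software error, and the high level of *Notch1* in untreated OHC-TRECK enters its value.

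**Figure D3:**
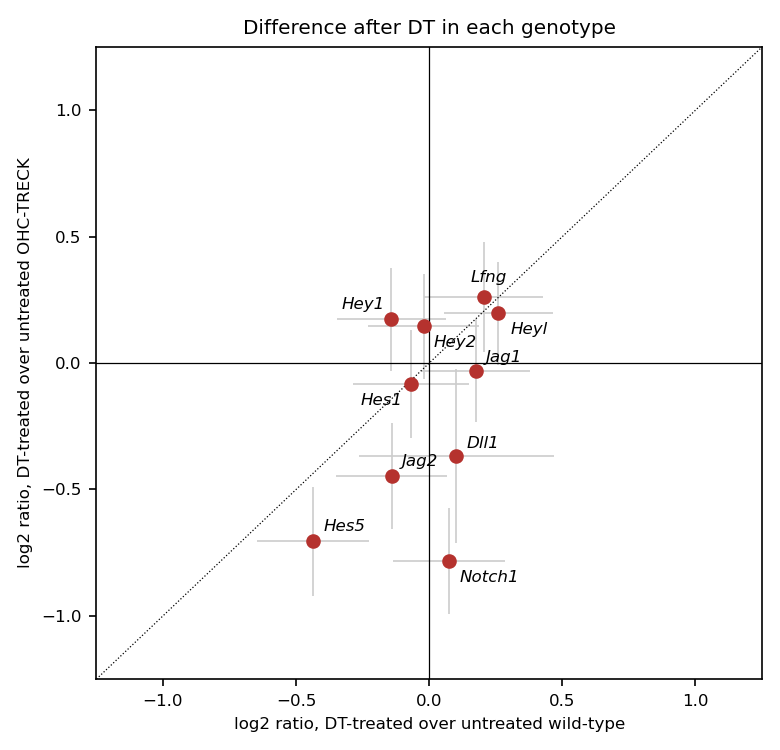
Difference after DT in wild-type (horizontal axis) and in OHC-TRECK mice (vertical axis) for each member, as log2 ratios with software errors as bars and the line of equal difference dotted. *Hes5* was lower after DT on both axes (-0.44 and -0.71), whereas *Notch1* was lower only in OHC-TRECK mice (0.07 and -0.78).

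In 8 further lists, 54 genes of receptors, ligands, Notch processing, nuclear cofactors, inhibitors and other *Hes* genes were measured. Against untreated OHC-TRECK 1 of 54 was 2-fold lower and none was higher, against DT-treated wild-type 0 of 52 passed in either direction, and against untreated wild-type 0 of 54 passed. These counts lie near the shares of all tested probes given above for the same comparisons and do not set the pathway apart. The medians were -0.02, -0.04 and -0.05 (log2). The one gene that passed was *Ncstn*, a subunit of the γ-secretase that cleaves Notch, with dim levels of -4.72, -4.72, -3.84 and -5.07 in the same order of groups as above. As with *Notch1*, its highest array was untreated OHC-TRECK.

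Of the other receptors, *Notch2* had levels of 0.27, 0.24, -0.11 and 0.12, with untreated OHC-TRECK the lowest. *Notch3* had levels of -0.42, -0.50, -0.50 and -0.67, and *Notch4* had levels of -0.98, -0.85, -0.92 and -0.79, so that DT-treated OHC-TRECK was the lowest array for *Notch3* and the highest for *Notch4*. All 5 other ligands and ligand-like genes were lower than in untreated OHC-TRECK, by 0.06 to 0.53 (log2). However, *Dll4* was not well above background in DT-treated OHC-TRECK, and *Dll3* was 0.40 higher than in untreated wild-type. Among all tested probes of that comparison, lower and higher values were about equally common (median 0.003). A shared fall of these 5 genes was not tested. The farthest was *Dner*, which encodes a Notch ligand-like protein. The levels of *Dner* were 2.12, 1.94, 2.01 and 1.48, with DT-treated OHC-TRECK the lowest. The 8 neuronal markers had a summed linear level of 123 on that array against 130 to 153 on the controls. Of the 8, 7 were lower than in untreated OHC-TRECK. The OHC markers were lower on that array as well, and the part of either list in the *Dner* value was not tested. *Neurl1a*, which encodes a ubiquitin ligase acting on Notch ligands, was 0.39, 0.39 and 0.53 lower than in the 3 controls (log2), in the order untreated OHC-TRECK, wild-type with DT and wild-type without DT. *Rbpj* itself had ratios of 0.01, -0.07 and -0.14 in the same order, and *Maml1*, the coactivator of the Notch complex, had 0.06, -0.005 and 0.08. *Nrarp*, an inhibitor that Notch induces as feedback, had levels of -4.66, -4.59, -4.38 and -4.75. *Hes6*, which is linked to hair cell differentiation rather than to Notch, was level on the 4 arrays, at 0.38, 0.37, 0.37 and 0.36.

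Among the genes described that act with Notch in hair cell fate, the hair cell factors were lower and the supporting cell factor was not. *Pou4f3*, a factor needed for hair cell survival, had levels of -2.68, -2.49, -2.49 and -4.05, and *Gfi1*, another hair cell factor, had levels of -0.34, 0.59, 0.71 and -1.37. Both were more than 2-fold lower in DT-treated OHC-TRECK than in every control. *Atoh1*, the gene that Notch represses, was well above background in untreated OHC-TRECK only, so no direction is given for it. *Sox2*, a factor of supporting cells, had levels of -1.69, -1.65, -1.53 and -1.68, so that DT-treated OHC-TRECK lay within the controls. *Id1*, *Id2* and *Id3*, inhibitors of factors such as *Atoh1*, were 0.19, 0.11 and 0.21 (log2) above untreated OHC-TRECK. *Neurog1* had levels of -3.73, -5.52, -5.42 and -5.74, so that untreated wild-type alone stood apart. It was well above background on both untreated arrays and on neither DT-treated array. The level in untreated OHC-TRECK was nevertheless close to those of the DT-treated arrays.

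The marker lists of the cell types that hold Notch components are given beside the members, and their part in the members' values was not tested. The 10 OHC markers had a median of -1.94 (log2) against untreated OHC-TRECK and 7 of the 10 were 2-fold lower, which no Notch member was. The 6 inner hair cell markers had a median of -0.38, with a summed linear level of 6.93 against 7.12 to 7.47 on the controls and none past 2-fold. Of the 6, 5 were lower against each control, although *Fgf8* was not well above background in DT-treated OHC-TRECK. The 1 that was higher, *Tbx2* (0.47 against untreated OHC-TRECK), was the brightest of them on that array and holds up the sum. In their own cell counts, the authors reported an unchanged number of inner hair cells after DT in *Prestin*-*hDTR* mice. By quantitative RT-PCR they reported no significant difference for *Slc17a8*, 1 of these markers. The 12 supporting cell markers had a median of -0.02, with 6 higher, 6 lower and none past 2-fold. Their summed level was 151 against 128 to 134, most of it from the gap junction genes *Gjb2* and *Gjb6*. Within this list *Lgr5*, a receptor of supporting cells, had levels of 0.86, 0.98, 0.91 and 1.48. *Sox9* had levels of 1.22, 1.45, 1.49 and 1.87, and both genes were highest in DT-treated OHC-TRECK. Conversely, *Prox1*, with levels of -4.09, -4.44, -4.47 and -4.70, and *Otogl*, with levels of -2.77, -2.16, -2.45 and -2.88, were lowest there. The 11 endothelial markers had a median of 0.02, with a summed level of 22.5 against 19.7 to 21.1. Of the 11, 6 were higher against untreated OHC-TRECK, 7 against DT-treated wild-type and 4 against untreated wild-type, and the 2 farthest above untreated OHC-TRECK were *Cldn5* (0.56) and *Emcn* (0.42). The 9 markers of pericytes and smooth muscle had a median of -0.07, with a summed level of 9.86 within the 9.66 to 10.2 of the controls.

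**Figure D4:**
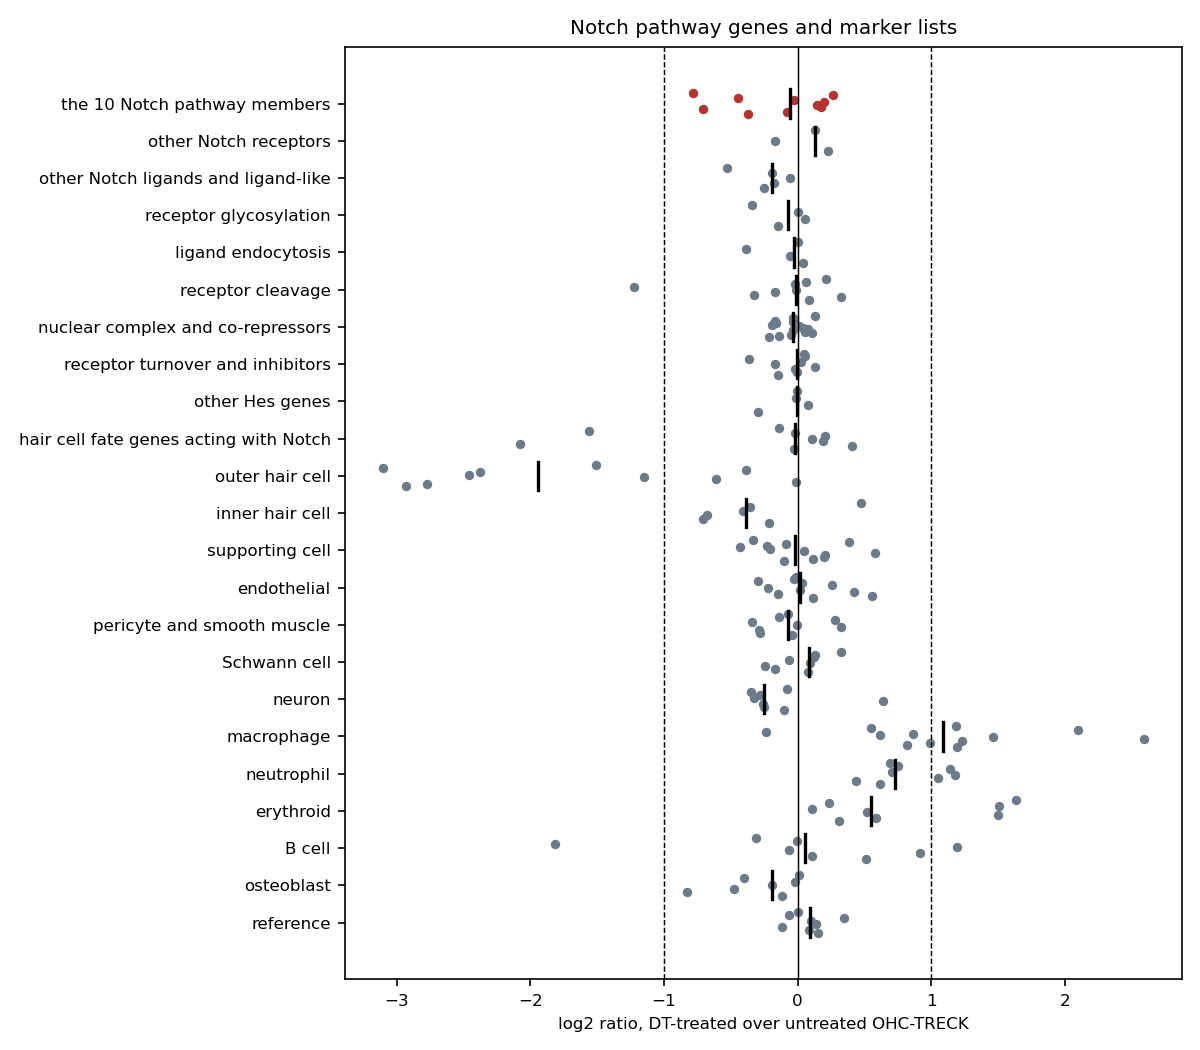
Log2 ratio of DT-treated over untreated OHC-TRECK for every tested gene of the Notch lists and the marker lists, with the median of a list as a black bar and 2-fold as dashed lines. A gene dim on one array is drawn from its own signal or at its bound. The 10 members lie between -0.78 and 0.26 around a median of -0.06, and the OHC markers have a median of -1.94.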

How the data were processed

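Cochlear RNA of 4 groups of mice was measured on 4 Agilent one-colour arrays, 1 per group, all on 1 slide. According to the methods, the authors labelled the RNA with Cy3, scanned at 5 µm and extracted spots with Feature Extraction 11.5.1.1. The intensity values used here are the background-subtracted spot signals as deposited in the scanner files, whose header gives the mm9 build. The authors' percentile shift and 2-fold screen were followed. With Python 3.11.15, numpy 2.4.6 and pandas 2.3.3, outlier spots were removed, spots of a probe were averaged, and the log2 signal was taken relative to the 75th percentile of the array.

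A probe was well above background when over 0.5 of its spots were so flagged, and it was tested in a comparison when this held on at least 1 of the 2 arrays. A dim probe was set to the higher of its own signal and the lowest signal well above background on that array. Its fold is a bound where the latter was used. For a gene with several probes, the brightest was used. Probe symbols were updated through RefSeq, where 29803 probes matched by symbol, 295 by synonym and 1635 by accession, and 7696 kept the file's name. The software error of a ratio combines the errors of both signals. All members and every gene of the fixed lists could be named. The number of arrays limits the precision: there is no replicate, and errors and spot SDs are technical.

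Alternatives were median scaling, quantile normalization, normexp background correction (limma 3.58.1 in R 4.3.3, offset 50), a filter over all 4 arrays, no filter and floor, the deposited matrix, and a 1.5-fold threshold. The deposited matrix holds linear signals divided by 1 constant per array, with medians of 0.091 to 0.095 and no centring on the median of the arrays. The members and lists were chosen with earlier results of these data known.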

Additional observations from a re-analysis of the deposited data

How the results depend on the processing

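No paired analysis was possible because each group had 1 array, and no replicate could be left out. Under 6 alternatives, 292 of 300 log2 ratios of the 10 members moved by less than 0.10, the error of a ratio of 2 spots that the largest median SD of repeated spots gives. The filter settings could not move these ratios, because the probe used for each member was well above background on all 4 arrays. Median scaling and the deposited matrix shift every ratio of a comparison by the same amount. Only normexp and quantile normalization could move single ratios, and they gave 6 and 2 of the larger moves. Of the other 8, 6 were of the dim *Dll1* probe, whose ratio against untreated wild-type went from -0.01 to 0.13 with quantile normalization. With normexp, *Hes5* against untreated OHC-TRECK was -0.60 and *Hey2* against untreated wild-type 0.30. Counts of member probes past 2-fold moved as follows. At 1.5-fold, 2 were lower in DT-treated than in untreated OHC-TRECK, 1 was lower in DT-treated OHC-TRECK than in untreated wild-type, and 1 was higher in untreated OHC-TRECK than in untreated wild-type. Without the filter and floor, 1 was lower than untreated wild-type in DT-treated OHC-TRECK and 1 in DT-treated wild-type, both the second *Dll1* probe. That probe's call between the untreated arrays became 0 with normexp and with the filter over all 4 arrays, which removes it. Chosen after seeing the data, leaving out each control array in turn left 4 to 5 members above and 4 to 5 below the rest. Leaving out a control cannot lower these counts, so they say nothing about stability. Median scaling, quantile normalization and the deposited matrix left 4 above and 3 below, *Dll1* being the one lost. No alternative moved the median of all probes by over 0.1 (log2).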
